A study of Mus musculus with 32 samples.

Results

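The transcripts described here are messenger RNAs of the mouse mitochondrial genome, read in 3T3-L1 cells while these differentiated into fat cells with or without a knockdown of Zbtb9. They are 9 of the 13 protein-coding genes of that genome and of the 20560 genes of the table, chosen by name with earlier results of these data known: mt-Nd1, mt-Nd2, mt-Nd4, mt-Nd5, mt-Cytb, mt-Co1, mt-Co2, mt-Co3 and mt-Atp6. 3T3-L1 is a mouse embryo fibroblast line that accumulates fat when given hormones. RNA sequencing covered 32 libraries, 8 at each of days 0, 3, 7 and 11. On each day 4 libraries carried a scrambled short hairpin RNA (shCtrl, labelled WT, called control here), 2 carried shRNA #1 and 2 carried shRNA #2 against Zbtb9, and the last 4 form the knockdown group. Each arm received dexamethasone, IBMX and insulin from day 0, insulin alone from day 3 and plain medium from day 7. The labels call the cells preadipocytes at day 0, premature adipocytes at days 3 and 7 and mature adipocytes at day 11. They call the replicates biological. They do not say how the hairpins were delivered, whether lines were pools or clones, or what was repeated for each replicate, so the p-values measure only the spread between these libraries.

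Mitochondrial DNA encodes a small set of proteins, all of them parts of the respiratory chain or of ATP synthase, together with the RNAs of the mitochondrial ribosome. Both strands are copied from end to end by the polymerase Polrmt, helped by Tfam and Tfb2m, and the long RNAs are cut at the transfer RNAs that lie between the genes. The messengers are then given a poly(A) tail and held stable mainly by Lrpprc and Slirp. Nuclear genes supply every other subunit, so that the respiratory complexes are built from products of both genomes. Fat cells are known to add mitochondria as they differentiate.

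The members lie on the heavy-strand transcript of chrM (GRCm38, GENCODE M21, exons without introns). They are, with their roles, mt-Nd1 (2751 to 3707), mt-Nd2 (3914 to 4951), mt-Nd4 (10167 to 11544) and mt-Nd5 (11742 to 13565), membrane subunits of complex I, where NADH is oxidised. The next is mt-Cytb (14145 to 15288), the haem-carrying core of complex III. Then come mt-Co1 (5328 to 6872), mt-Co2 (7013 to 7696) and mt-Co3 (8607 to 9390), the core of cytochrome c oxidase or complex IV. The last is mt-Atp6 (7927 to 8607), part of the proton channel of ATP synthase or complex V.

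For 3 members the annotated gene stops inside its last codon, and the poly(A) tail is known to complete the stop. Their last 21 bases, all from the plus strand of chrM, are shown beside that of mt-Co1, whose stop codon is encoded; capitals mark what the genome supplies of it.
mt-Cytb, chrM:15268-15288: aaatactaaaattatatccaT
mt-Nd4, chrM:11524-11544: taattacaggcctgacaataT
mt-Co3, chrM:9370-9390: ccatttattgatgaggatctT
mt-Co1, chrM:6852-6872: acctatgtaaaagtaaaaTAA
The other 6 members end in a complete codon. mt-Nd5 on the plus strand and mt-Nd6 on the minus strand meet tail to tail and share 14 bases, in capitals here, each gene written 5′ to 3′.
mt-Nd5, chrM:13536-13565, plus: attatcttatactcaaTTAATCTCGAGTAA
mt-Nd6, chrM:13552-13581, minus: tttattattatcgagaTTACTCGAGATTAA

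Some members are repeated in the nuclear genome, so that part of their sequence does not tell the gene from its copy. A block on chromosome 1 (24611535 to 24616197, minus strand) holds 7 annotated pseudogenes in the order of the mitochondrial genome over 4663 bases. Among them, Gm28661 matched 681 bases of mt-Co2, Gm10925 matched 678 bases of mt-Atp6 and Gm28437 matched 783 bases of mt-Co3, each at 100% identity. A window of 60 bases from the body of mt-Atp6 shows such a shared stretch.
mt-Atp6, chrM:8227-8286, plus: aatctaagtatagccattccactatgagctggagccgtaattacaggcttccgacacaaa
Gm10925, chr1:24614292-24614351, minus: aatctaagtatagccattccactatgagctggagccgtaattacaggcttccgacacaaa
The less similar copy Gm13339 on chromosome 2 matched 510 bases of mt-Nd2 at 96.67% identity, and a window of the same length differs at 2 bases, in capitals.
mt-Nd2, chrM:4514-4573, plus: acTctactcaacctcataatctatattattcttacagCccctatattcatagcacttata
Gm13339, chr2:22590402-22590461, minus: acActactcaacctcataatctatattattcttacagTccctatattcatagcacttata

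The members fell into groups by how much of their length an annotated nuclear transcript repeats exactly. No window of 50 bases of mt-Nd1 or mt-Cytb had such a copy, and 7.61% of those of mt-Nd5 and 8.19% of those of mt-Nd2 did. The share was 51.1% for mt-Co1, where Gm29216 matched the last 483 bases with 1 mismatch and Gm13340 all 1545 bases at 97.61% identity, and 62.2% for mt-Nd4, where Gm28439 repeats the first 876 bases. It was 99.5% for mt-Atp6, 99.9% for mt-Co3 and 100% for mt-Co2. These last 3 held far fewer reads than the rest: medians over the 32 libraries, in reads normalized for library size and per kilobase of gene, were 179 for mt-Atp6, 185 for mt-Co3 and 367 for mt-Co2, against 11677 for mt-Nd4 and 76071 for mt-Co1. How reads that fit more than 1 place were counted is not given in the sources used here, so mt-Co2, mt-Co3 and mt-Atp6 (37 to 595 reads a library) are reported as uncertain throughout. The search covered annotated transcripts alone. mt-Atp8 (0 to 10 reads a library) had 0% of its windows repeated in them, but it lies between mt-Co2 and mt-Atp6, and the block on chromosome 1 has 233 bases between the copies of these genes, against 230 in the mitochondrial genome. Whether copies lowered the counts was not tested. Gm10925 itself held a median of 127 normalized reads and Gm28437 of 79.1.

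**Figure D1:**
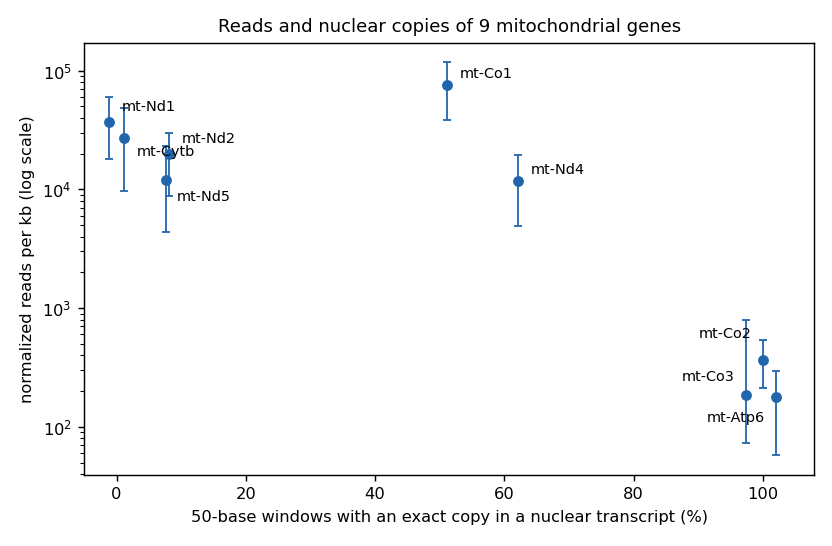
Median normalized reads per kilobase over the 32 libraries (vertical axis, logarithmic) against the percent of a gene's 50-base windows that an annotated nuclear transcript repeats exactly (horizontal axis), for each of the 9 members. Bars run from the lowest to the highest library, and points that would overlap are moved sideways. mt-Co2, mt-Co3 and mt-Atp6 sit at the right, at 99.5% or more, with medians of 179 to 367.

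Among the 6 well-read members the order of levels per kilobase in control cells at day 0 was mt-Co1 (85946 ± 3434 normalized reads per kilobase, SD, n = 4), mt-Nd1 (42995 ± 1559), mt-Cytb (35949 ± 1978), mt-Nd2 (20874 ± 581), mt-Nd5 (16672 ± 450) and mt-Nd4 (14024 ± 671). Each gap between neighbours in that order was larger than the SDs. By day 11 mt-Nd2 (14702 ± 656) stood above mt-Cytb (11187 ± 114). At that day mt-Nd4 (5677 ± 183) and mt-Nd5 (5543 ± 175) differed by less than their SDs. These levels use the full gene length. Nuclear copies repeat 62.2% of the windows of mt-Nd4 and 51.1% of those of mt-Co1, and how such reads were counted is not given. The levels of mt-Nd4 and mt-Co1 against the other members, and so the place of mt-Nd4, are therefore uncertain. The part of copies in this order was not tested.

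**Figure D2:**
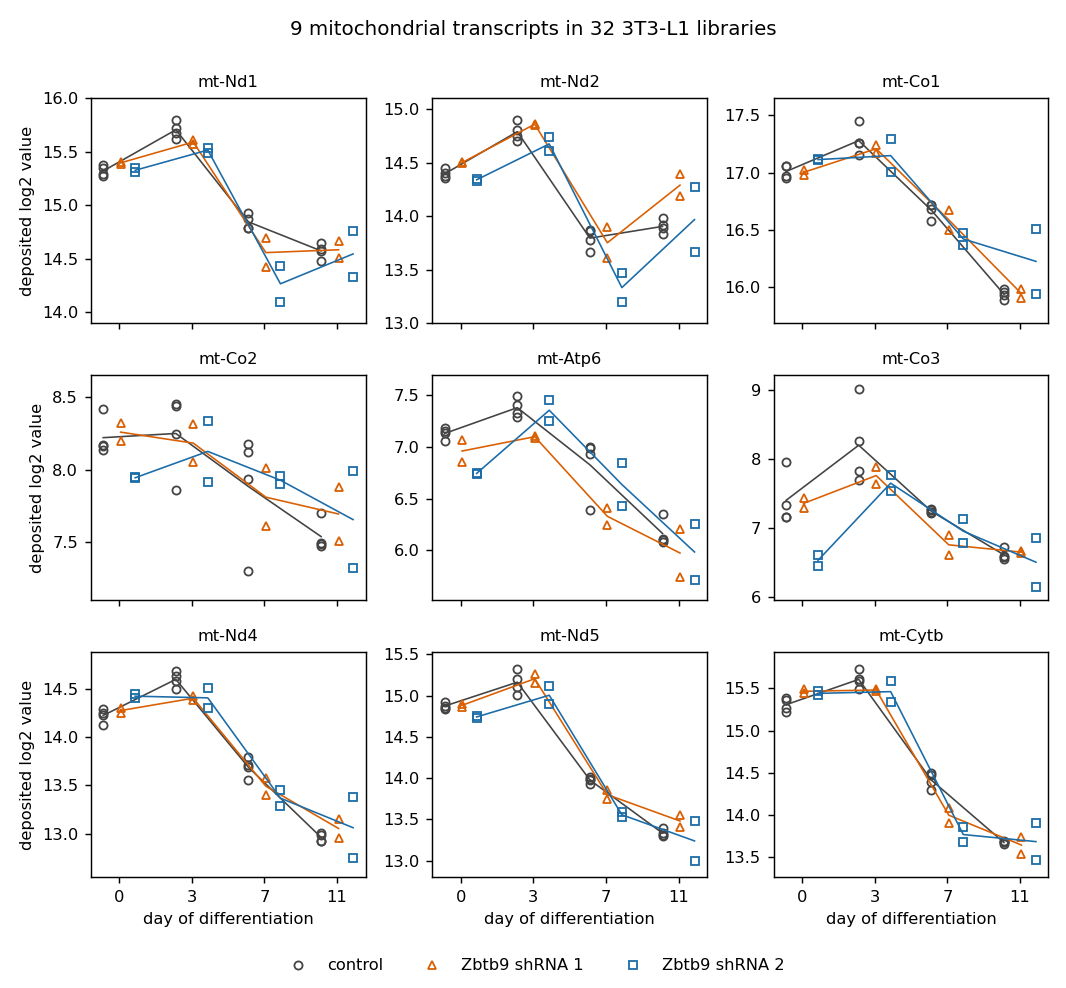
Deposited log2 value of each member in every library (vertical axis) by day, with control and the 2 shRNAs in separate colours and lines through the group means. Each gene has its own panel with its own vertical range. In normalized reads per kilobase, which are not drawn, the 6 well-read members start between 14024 and 85946 in control cells at day 0. mt-Co2, mt-Co3 and mt-Atp6 stay far below them in every library, as the numbers on the vertical axes show.

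In control cells the mitochondrial messengers fell over differentiation. All 9 members were lower at day 11 than at day 0 (limma, adjusted p under 0.05 over the 13421 genes tested; mt-Co3 missed it with voom on rebuilt reads, at 0.0519), with a median log2 change of -0.97 against 0.01 over all genes; 31.6% of all genes were called lower and 33.0% higher in this comparison. Changes are differences of the deposited log2 values throughout. The fall came after a rise: 8 members were higher at day 3 than at day 0 (median 0.30; 38.3% of genes were called higher). With each library rescaled to the same total, the median over all genes shifted by -0.13 in that step and the members' median was 0.17. Then 8 were lower at day 7 than at day 3 (median -0.91; 36.6% of genes lower), and 7 were lower and 1 higher at day 11 than at day 7 (median -0.65; 26.1% lower). Together the members took up 1.17% ± 0.04, 1.33% ± 0.097, 0.771% ± 0.034 and 0.519% ± 0.007 (SD, n = 4) of the reads in genes on days 0, 3, 7 and 11. In bulk RNA, fewer cells of a type and less RNA per cell cannot be told apart.

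Of complex I, mt-Nd5 fell the most. Its normalized reads in the control libraries were 31558, 29668, 30389 and 30021 at day 0 and 10102, 9849, 10563 and 9929 at day 11, with no overlap. The log2 change was -1.54 (SE 0.044, adjusted p = 3.89e-24 by limma). For mt-Nd4 the 4 libraries went from 18032, 19390, 20199 and 19680 to 7594, 8095, 7625 and 7979, a change of -1.26. mt-Nd1, which lies nearest to the ribosomal genes, fell less, by 0.75, from 41146 ± 1492 to 24149 ± 1197 normalized reads (SD, n = 4). mt-Nd2 fell by 0.49 and was the exception after day 7: it had 13940, 14745, 12886 and 14928 normalized reads at day 7 and 15124, 15374, 16096 and 14449 at day 11. That rise of 0.11 was called in the control fit (adjusted p = 0.0318, limma) and not in a fit of all 32 libraries (0.34), without trend and robust estimation (0.0964) or without day 7 replicate 1 or 3 or day 11 replicate 2 or 3 (0.0621 to 0.179).

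mt-Cytb of complex III had the largest fall of the 9. The control libraries held 38515, 39992, 43349 and 42648 normalized reads at day 0, rose to between 46882 and 55592 at day 3, and fell to between 20020 and 22981 at day 7. At day 11 they held 12613, 12920, 12831 and 12829. The change from day 0 to day 11 was -1.63 (SE 0.044, adjusted p = 4.26e-24, limma), or -67.8%. mt-Cytb therefore fell more than mt-Nd1, which lies near the start of the same transcript: the ratio of mt-Cytb to mt-Nd1 per kilobase was 0.836 ± 0.023, 0.786 ± 0.022, 0.621 ± 0.024 and 0.444 ± 0.023 (SD, n = 4) on days 0, 3, 7 and 11. Between day 0 and day 11 this ratio had a two-sided exact permutation p of 0.0286, the smallest that 4 against 4 allow, or 0.0571 adjusted over 8 comparisons. The falls were not in the order of position throughout, since mt-Co1 (-1.07) lies between mt-Nd2 (-0.49) and mt-Co2 (-0.68).

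Of complex IV, mt-Co1, the catalytic subunit and the most abundant of the well-read members, fell from 132786 ± 5306 to 61681 ± 1798 normalized reads (SD, n = 4), a change of -1.07 (adjusted p = 3.96e-19, limma). Unlike the complex I and III members, its loss was larger from day 7 to day 11 (-0.74) than from day 3 to day 7 (-0.61); the difference of these steps was not tested. The uncertain members had smaller or noisier changes over the same days: -0.68 for mt-Co2 (adjusted p = 0.00164, limma), -0.79 for mt-Co3 (0.0107) and, for mt-Atp6 of complex V, -0.97 (4e-09). The call of mt-Co3 from day 7 to day 11 (0.0396) was lost with voom (0.151) and without any 1 library of those days (0.0575 to 0.082). That of mt-Atp6 from day 0 to day 3 (0.25, adjusted p = 0.0456, limma), the smallest of the 8 rises, was lost without 7 of the 8 libraries (0.0524 to 0.121). It was also lost without a filter (0.0639), with the replicate block (0.0522), on rebuilt reads plus 1 (0.0602) and in the fit of all 32 libraries (0.0656), and the change was 0.12 under both rescalings (0.327 and 0.318). mt-Co2 did not pass the test between any neighbouring days, though it did from day 3 to day 7 without a filter (0.0431), without day 3 replicate 2 (0.00605) or without day 7 replicate 3 or 4 (0.0194 and 0.0289), and from day 7 to day 11 without day 7 replicate 1 (0.000137). Its estimate of 0.03 from day 0 to day 3 turned to -0.10 under both rescalings of the libraries. Gm10925, the nuclear copy of mt-Atp6, changed by -0.96 from day 0 to day 11, and Gm28661, the copy of mt-Co2, by -0.41.

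**Figure D3:**
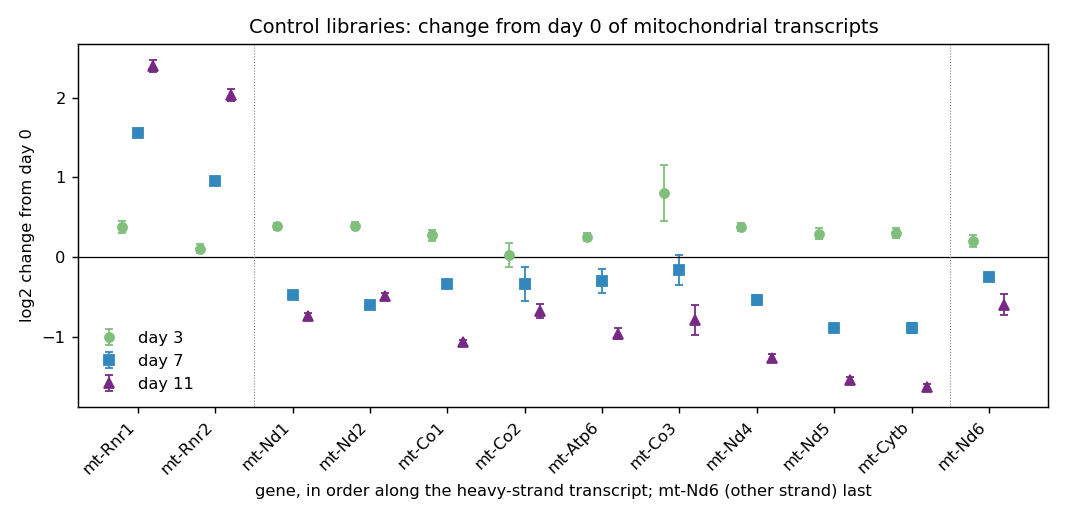
Log2 change of the group means since day 0 in control cells (vertical axis), by gene and later day. The genes are those of the mitochondrial genome that passed the filter. Bars are the SE of the difference of 2 means of 4 libraries. 8 of the 9 members rise to day 3 and all end below day 0, from -0.49 for mt-Nd2 to -1.63 for mt-Cytb, while mt-Rnr1 and mt-Rnr2 end above it.

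The ribosomal RNAs of the same heavy strand went the other way. mt-Rnr1, the 12S RNA of the small mitochondrial subunit (chrM 70 to 1024), rose from 3848 ± 131 normalized reads (SD, n = 4) in control cells at day 0 to 21420 ± 2077 at day 11, a 5.26-fold rise (log2 2.40, adjusted p = 8.62e-17, limma). mt-Rnr2, the 16S RNA of the large subunit (1094 to 2675), rose 4.1-fold. The members had 26.2 reads per ribosomal read at day 0 and 2.56 at day 11. Ribosomal RNA is often lost when libraries select poly(A) tails, and whether that was done is not given in the sources used here, so these values describe the libraries rather than ribosome content. mt-Nd6, the complex I messenger of the other strand (13552 to 14070), fell by 0.60 in the same libraries (adjusted p = 6.53e-06, limma), from 652 ± 9.01 to 424 ± 84. The strand setting of the counting is not given in the sources used here, so reads of mt-Nd6 and reads antisense to it cannot be told apart.

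Zbtb9 itself had few reads, 0 to 23 a library, which limits how well the knockdown can be checked. At day 0 the control libraries held 13.5 to 14.9 normalized reads and the knockdown libraries 4.62 to 10.6. At day 7 they held 12.7 to 22.3 and 4.87 to 9.28 (log2 -0.35, adjusted p = 0.0288, limma). Days 0 and 7 had no overlap between arms. At day 3 the ranges were 6.35 to 12.6 and 0 to 8.99, and the gene was below the filter. At day 11 the library labelled shRNA #1 replicate 2 held 19.3, inside the control range of 12.1 to 19.96, and the gene was not called at day 0 or day 11 over both hairpins. At day 11 it was lower with shRNA #2 (-0.49, adjusted p = 0.0228, limma) and gave -0.08 with shRNA #1 (0.734), a difference between hairpins that was not called (-0.41, 0.12). At day 7 neither hairpin alone was called (0.107 and 0.0714).

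Before differentiation no member differed between the arms at the threshold over both hairpins, while single hairpins did differ from control. At day 0, 0 of 9 were called by limma or by voom on rebuilt reads, 3.25% of the 13216 genes tested were called, and the members' median change was 0.03 (-0.003 to 0.042 with 1 library left out) against -0.01 over all genes. The members' share of reads was slightly higher in knockdown cells, at 1.219% to 1.259% against 1.125% to 1.211% in control cells, without overlap. 3 members had an unadjusted p under 0.05 in limma: mt-Nd4 (0.13, or 19325 ± 925 normalized reads in control and 21150 ± 1362 in knockdown cells, SD, n = 4), mt-Cytb (0.15, with all knockdown libraries above all control libraries) and mt-Atp6 (-0.28). The same 3 were called when the hairpins were fitted as separate groups (limma, adjusted p = 0.00167, 0.00149 and 0.0281), where 3340 of the 13216 genes were. Against the same controls, shRNA #1 alone gave 2 members higher (mt-Nd2 and mt-Cytb), where 34.7% of all genes were called. shRNA #2 alone gave 3 higher (mt-Nd4, mt-Cytb and mt-Co1) and 4 lower (mt-Nd5, mt-Co2, mt-Co3 and mt-Atp6), where 17.6% were. The hairpins also differed from each other: 6 members were called between shRNA #2 and shRNA #1, where 35.0% of all genes were. mt-Nd4 and mt-Co1 were higher with shRNA #2, by 0.15 and 0.11, while mt-Nd2, mt-Nd5, mt-Co2 and mt-Co3 were lower, by up to 0.83 for the uncertain mt-Co3. Without shRNA #1 replicate 1 or shRNA #2 replicate 2, 2 members were called between them. mt-Rnr1 was lower in the knockdown, at 3058 ± 89 against 3848 ± 131 normalized reads (log2 -0.32, adjusted p = 0.00297, limma, but 0.437 with the replicate block). mt-Nd6 (0.14, with all knockdown libraries above all control libraries) and mt-Rnr2 (-0.25) were not called in the main fit. With the hairpins as separate groups both were called (adjusted p = 0.0403 and 5.28e-07, limma).

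At day 3, 2 complex I messengers were slightly lower in knockdown cells. The fit called 2 of 9 members lower, where 12.1% of genes were lower, 14.6% higher and 26.7% called either way among 13139, and the members' median was -0.14. mt-Nd1 had 54979, 50753, 57952 and 53142 normalized reads in control libraries, 49218 and 50564 with shRNA #1 and 48110 and 46490 with shRNA #2, so every knockdown library lay below every control library. Its change was -0.15 (SE 0.048, adjusted p = 0.0297, limma), or -10%. mt-Nd4 had 25761, 23571, 26762 and 24910 in control libraries against 22218, 21656, 23625 and 20479, with 1 knockdown library just inside the control range, and changed by -0.19 (adjusted p = 0.0125, limma). Neither call held in a fit of all 32 libraries (adjusted p = 0.139 and 0.0993, limma) or with the replicate block (0.306 and 0.147). That of mt-Nd1 was also lost without trend and robust estimation (0.074) and without control replicate 1, 3 or 4 or shRNA #2 replicate 1 (0.0573 to 0.12), and that of mt-Nd4 without control replicate 3 (0.0552). Between the hairpins mt-Nd2 alone was called, lower by 0.18 with shRNA #2 (19.6% of all genes were called), and 0 were called without shRNA #1 replicate 1 or 2 or shRNA #2 replicate 2.

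The ribosomal RNAs went in opposite directions with the hairpins at day 3. mt-Rnr1 rose with shRNA #1 (0.48, adjusted p = 0.0368, limma) and fell with shRNA #2 (-0.54, 0.0305), and mt-Rnr2 rose by 0.41 (0.0126) and changed by -0.57 (0.00349). The difference between hairpins was -1.02 for mt-Rnr1 (adjusted p = 0.00757, but 0.0603 without shRNA #2 replicate 2 and 0.0957 with the replicate block) and -0.98 for mt-Rnr2 (0.000775). Over both hairpins they gave -0.03 and -0.08 (adjusted p = 0.956 and 0.865), and mt-Nd6 gave -0.10 (0.374).

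At day 7 most of the members were lower in knockdown cells. The fit called 6 of 9 lower and 0 higher (mt-Nd1, mt-Nd4, mt-Nd5, mt-Cytb, mt-Co1 and mt-Co3), with a median of -0.30 against 0.01 over all genes. Of the 13299 genes tested 22.6% were lower, 24.9% higher and 47.6% called either way. With the replicate block mt-Nd5 and mt-Cytb alone were called, where 4112 of all genes were (6328 without the block). Each shRNA on its own against the same controls also gave 6 members lower and 0 higher, with a median of -0.20 for shRNA #1 (24.3% of all genes lower) and -0.32 for shRNA #2 (22.0%). mt-Nd1, mt-Nd4, mt-Nd5 and mt-Cytb were lower with both hairpins, mt-Co3 and mt-Atp6 were called with shRNA #1 alone, and mt-Nd2 and mt-Co1 with shRNA #2 alone. The members' share of reads was 0.622% ± 0.066 (SD, n = 4) in knockdown cells, from 0.547% to 0.709%, and 0.771% ± 0.034 in control cells, from 0.730% to 0.807%, without overlap.

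mt-Cytb was lower at day 7 with each hairpin. The control libraries held 20020, 22981, 21400 and 22573 normalized reads, those with shRNA #1 held 15138 and 17182, and those with shRNA #2 held 14569 and 12868. All 4 knockdown libraries lay below all control libraries. The change was -0.53 (SE 0.074, adjusted p = 3.36e-05, limma), or -30.8%. Against control it was lower by 0.42 with shRNA #1 and by 0.65 with shRNA #2. shRNA #2 lay below shRNA #1 by 0.23 (adjusted p = 0.028, limma), a call lost without shRNA #1 replicate 2 or shRNA #2 replicate 2 (0.367 and 0.289), without a filter, without trend and under both rescalings (0.0976 to 0.179).

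In complex I, mt-Nd1 held 28177, 29927, 28037 and 31081 normalized reads in control libraries at day 7, 21679 and 26242 with shRNA #1 and 21864 and 17146 with shRNA #2. The arms did not overlap, and the change was -0.43 (SE 0.1, adjusted p = 0.00393, limma, but 0.0638 with the replicate block), or -25.9%. mt-Nd5 held 16101, 16458, 15534 and 16024 in control libraries, 13543 and 14698 with shRNA #1 and 12100 and 11613 with shRNA #2, a change of -0.30 (SE 0.065, adjusted p = 0.00126, limma). These too did not overlap, and shRNA #2 was lower than shRNA #1 by 0.24, a call lost without trend (0.0597) or without shRNA #1 replicate 2 (0.119). mt-Nd4 held 11968, 14149, 13391 and 13187 in control libraries against 10733, 12153, 11105 and 9856, with 1 knockdown library inside the control range, a change of -0.26 (adjusted p = 0.0039, limma, but 0.0806 with the replicate block). mt-Nd2, at 14125 ± 931 in control and 11963 ± 2496 normalized reads in knockdown cells (SD, n = 4), was not called over both hairpins (-0.25, adjusted p = 0.137, limma). It was lower with shRNA #2 (-0.46, adjusted p = 0.00245) than with shRNA #1 (-0.04), and this difference was called (-0.42, adjusted p = 0.0276), but not without trend, with the replicate block, under both rescalings or without replicate 2 of either hairpin (0.0739 to 0.116). In all, 3 members were called between the hairpins at day 7, where 16.4% of genes were; 0 were called without shRNA #1 replicate 2, 1 without shRNA #2 replicate 2 and 5 without shRNA #1 replicate 1. With the hairpins as separate groups mt-Nd2 was called lower against control (adjusted p = 0.0185, limma), as it was in the fit of all 32 libraries (0.0254) and without shRNA #1 replicate 2 (0.00229).

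Of the complex IV and V members, mt-Co1 and mt-Co3 were called, each with exceptions. mt-Co1 held 97194, 107388, 107619 and 105062 normalized reads in control libraries at day 7, 92056 and 104545 with shRNA #1 and 90591 and 83719 with shRNA #2; 3 knockdown libraries lay below the controls and 1 lay among them. Its change of -0.17 (adjusted p = 0.0396, limma) was lost in the fit of all 32 libraries (adjusted p = 0.1), without a filter (0.0619), without trend and robust estimation (0.0872), with the replicate block (0.281) and without each library of the day except shRNA #1 replicate 2 and control replicate 1 (0.0641 to 0.114). Among the uncertain members, mt-Co3 went from between 149 and 155 to between 88 and 138 normalized reads (-0.39, adjusted p = 0.0116, limma, but 0.128 in the fit of all 32 libraries and 0.0937 with the block). mt-Atp6 changed by -0.34 (adjusted p = 0.0812, but 0.0165 in the fit of all 32 libraries, 0.0318 with separate hairpins, 0.0124 without control replicate 1 or 0.0187 without shRNA #2 replicate 1) and mt-Co2 by -0.01 (0.953). Gm28437 and Gm10925, the nuclear copies of mt-Co3 and mt-Atp6, changed by -0.40 and -0.39 (adjusted p = 0.0338 and 0.015, limma).

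mt-Nd6, on the other strand, rose at day 7. mt-Nd6 held 556, 578, 526 and 506 normalized reads in control libraries, 860 and 990 with shRNA #1 and 893 and 746 with shRNA #2, all above the controls. It rose by 0.64 (SE 0.08, adjusted p = 9.17e-06, limma), or 55.5%, while mt-Nd5, its tail-to-tail neighbour, fell. The ratio of mt-Nd6 to mt-Nd5 per kilobase was 0.119 ± 0.00548 in control and 0.236 ± 0.0165 in knockdown cells (SD, n = 4). mt-Rnr1 and mt-Rnr2 gave 0.17 and 0.03 over both hairpins (adjusted p = 0.302 and 0.89, limma), and mt-Rnr1 was called with the hairpins as separate groups (0.0121). mt-Rnr1 rose with shRNA #1 (0.39, adjusted p = 3.91e-05) and gave -0.06 with shRNA #2, a difference of -0.45 between the hairpins (adjusted p = 0.000341). For mt-Rnr2 that difference was -0.43 (adjusted p = 0.0406), and 0.064, 0.098 or 0.056 without control replicate 1, 3 or 4 and 0.0991 to 0.237 without shRNA #1 replicate 2 or either library of shRNA #2. It also missed the threshold with voom, without trend, under the replicate block and under both rescalings (0.0682 to 0.13).

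**Figure D4:**
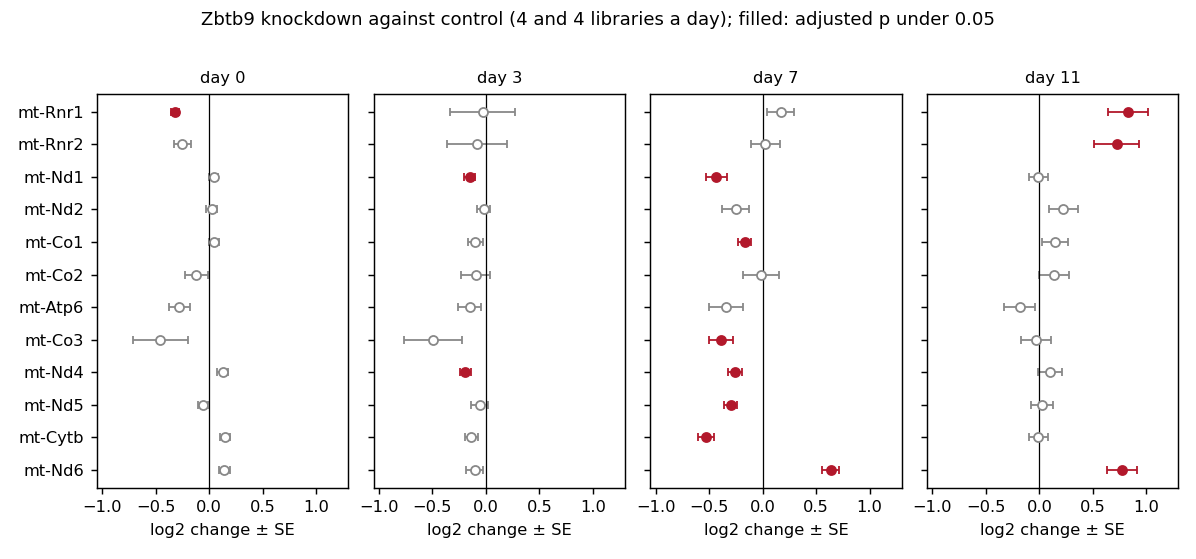
Log2 difference between knockdown and control cells with its SE for each gene of the mitochondrial genome that passed the filter, by day; filled points have an adjusted p under 0.05. The members spread around 0 at days 0 and 11, and 6 of 9 lie below it with filled points at day 7. mt-Nd6 lies above it at day 0 with an open point and at days 7 and 11 with filled points.

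At day 11 no member differed between the arms at the threshold, and the members' median was 0.03 against -0.01 over all genes. Leaving out 1 library at a time put that median between -0.036 and 0.148. 0 of 9 were called by limma and by voom on rebuilt reads, and 0 had an unadjusted p under 0.05, where 33.0% of the 13281 genes tested were called and 16.8% were higher. mt-Cytb held 12613 to 12920 normalized reads in control libraries, 11658 and 13469 with shRNA #1 and 15120 and 10995 with shRNA #2, on both sides of the controls (-0.01, SE 0.086). The libraries of shRNA #2 stood apart from each other: mt-Co1 had 92589 normalized reads in replicate 1, and the other 7 libraries of the day had 59310 to 63658. Without shRNA #2 replicate 2, mt-Nd2 was called higher (0.38, adjusted p = 0.00226, limma). Between the hairpins 0 members were called and 0 had an unadjusted p under 0.05, where 22.0% of genes were called; 3 were called without shRNA #2 replicate 1 and 2 without replicate 2.

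The rest of the mitochondrial genome did differ at day 11. mt-Rnr1 held 19157, 22599, 23672 and 20254 normalized reads in control libraries, 41752 and 55667 with shRNA #1 and 33770 and 28311 with shRNA #2. All knockdown libraries lay above the controls, and the rise was 0.83 (SE 0.184, adjusted p = 0.00879, limma), or 77.8%. With the replicate block neither this rise nor that of mt-Rnr2 was called. mt-Rnr2 rose by 0.72 (adjusted p = 0.029, limma, and 0.05 to 0.0757 without shRNA #1 replicate 1 or control replicate 1, 2 or 4), also without overlap, and both were lower with shRNA #2 than with shRNA #1, by 0.62 and 0.69. These differences between hairpins were lost without shRNA #2 replicate 2 for mt-Rnr1 (adjusted p = 0.0556, limma) and without shRNA #1 replicate 2 (0.14) or with the replicate block (0.146) for mt-Rnr2. mt-Nd6 rose by 0.77 (SE 0.142, adjusted p = 0.00219, limma), from 330 to 499 in control to 613 to 862 normalized reads in knockdown libraries.

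Whether the knockdown effect changed from day 0 was tested in 1 fit of 32 libraries. At day 7 the effect was lower than at day 0 for 3 members, where 29.9% of the 13571 genes tested were called: mt-Cytb (-0.68, SE 0.107, adjusted p = 8.41e-06, limma), mt-Nd1 (-0.47, adjusted p = 0.00172) and mt-Nd4 (-0.38, adjusted p = 0.0114). For mt-Nd5 the difference was -0.24 (adjusted p = 0.141), so its day 7 fall was not shown to differ from day 0. At day 3 and day 11, 0 members were called by limma or by voom on rebuilt reads, where 6.57% and 23.2% of genes were; 2 at day 3 (mt-Nd4 and mt-Cytb) and 0 at day 11 had an unadjusted p under 0.05. At day 11, 1 was called without shRNA #2 replicate 2. mt-Nd6 differed from day 0 at day 7 (0.50) and day 11 (0.63), and mt-Rnr1 (1.15) and mt-Rnr2 (0.98) at day 11. The knockdown comparisons and the control course share the control libraries.

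The nuclear partners of the members moved in the opposite direction at day 7. Of 45 nuclear genes for respiratory subunits, 44 were called higher in knockdown cells (24.9% of all genes were) and 0 lower, with a median of 0.57 and a range of 0.17 to 1.08. By complex, 12 of 12 of complex I, 4 of 4 of complex II, which has no mitochondrial gene, 8 of 9 of complex III, 10 of 10 of complex IV and 10 of 10 of complex V were higher. In complex III, where mt-Cytb fell by 0.53, Uqcrfs1, the Rieske iron-sulfur protein, rose by 1.08 (adjusted p = 1.71e-09, limma), from 2605 ± 35.5 to 5680 ± 508 normalized reads (SD, n = 4), and Cyc1, cytochrome c1, by 0.80. In complex I Ndufs7 rose by 0.73, in complex IV Cox7a2 by 0.77, and in complex V Atp5b, the catalytic beta subunit, by 0.82. The counts of nuclear subunits called higher were 0 of 45 before differentiation (3.25% of all genes called either way), 29 at day 3 (median 0.18; 14.6% of all genes higher) and 31 at day 11 (median 0.24; 16.8%), with 0 lower on each day. In the control course the 2 groups of genes moved the same way in some steps. From day 0 to day 3, when 8 members rose, 42 of the 45 rose and 1 fell (median 0.36; 38.3% of all genes higher). From day 3 to day 7, when 8 members fell, 18 rose and 9 fell (median 0.07; 37.6% higher and 36.6% lower). From day 7 to day 11, when 7 members fell, 1 rose and 30 fell (median -0.19; 26.1% lower). From day 0 to day 11, 37 were higher and 0 lower (median 0.25; 33.0% higher).

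**Figure D5:**
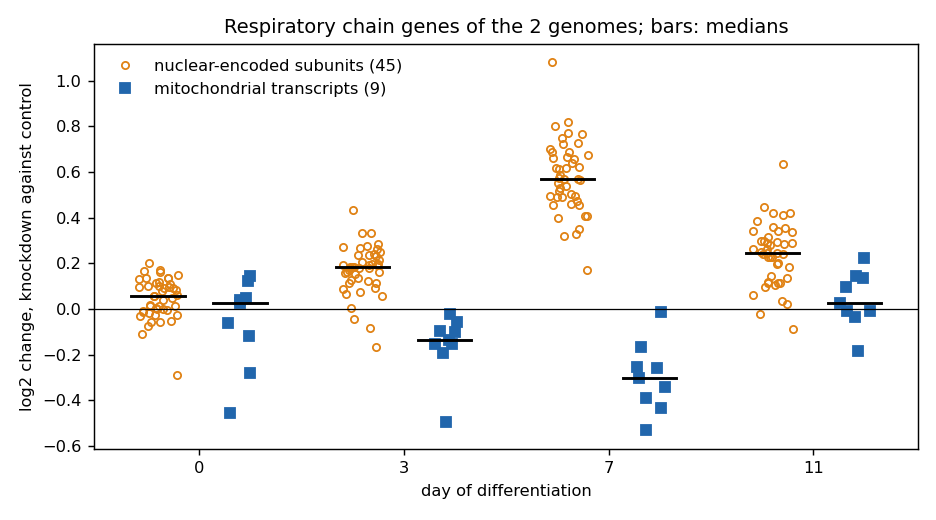
Log2 difference between knockdown and control cells by day for the 9 members and the 45 nuclear genes of respiratory subunits, 1 point a gene, moved sideways at random to separate points. At day 7 the medians are -0.30 for the members and 0.57 for the nuclear genes.

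The genes that make, process and translate mitochondrial RNA were mostly higher at day 7 as well, when 24.9% of all genes were called higher and 22.6% lower. Of 18 genes for mitochondrial transcription and replication 10 rose and 0 fell (median 0.24), among them the elongation factor Tefm (0.50), Mterf2 (0.41), Polrmt (0.35) and the packaging factor Tfam (0.34, from 826 ± 51.9 to 1060 ± 48.7 normalized reads, SD, n = 4), while Tfb2m gave 0.14 (adjusted p = 0.181, limma). Of 19 RNA processing and stability genes 11 rose and 0 fell, with the RNA-binding protein Grsf1 (0.81) and the RNase P subunit Hsd17b10 (0.63) in front. The messenger stabiliser Lrpprc rose by 0.28 (adjusted p = 0.0295), the poly(A) polymerase Mtpap rose by 0.30, and Slirp gave 0.06 (0.586). Mitochondrial ribosomal proteins rose in 67 of 78 and fell in 0 (median 0.31), with Mrpl12 at 0.89. Translation factors rose in 8 of 11, with Gfm2 at 0.54 and Taco1, an activator of mt-Co1 translation, at 0.48.

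Genes often used as measures of mitochondrial content rose too. At day 7 all 10 of that list were higher (median 0.54), such as the chaperone Hspd1 (0.84), the import channel Timm23 (0.64), citrate synthase Cs (0.57), the import receptor Tomm20 (0.38) and the outer membrane channel Vdac1 (0.37). Of 8 nuclear regulators tested, 3 rose and 2 fell, near the 24.9% and 22.6% of all genes. Ppargc1b, a coactivator of mitochondrial genes, rose by 1.65, from 202 ± 18.3 to 718 ± 70.9 normalized reads (SD, n = 4), and the nuclear receptor Esrra rose by 0.55 and Nrf1 by 0.21. Ppargc1a (-0.52) and Pprc1 (-0.41), of the same family as Ppargc1b, fell, and Gabpa gave 0.04 (adjusted p = 0.584, limma). At day 11, 4 of 18 transcription and replication genes and 19 of 78 ribosomal proteins were higher, shares near the 16.8% of all genes called higher on that day, and 7 of 10 content genes were.

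Along the control course the same lists were mixed. From day 0 to day 3, 10 of 18 transcription and replication genes rose and 2 fell, and 13 of 19 RNA processing genes rose and 1 fell (38.3% of all genes were called higher). From day 3 to day 7, 8 fell and 4 rose in the first list and 8 fell and 3 rose in the second, near the 36.6% of all genes called lower. Tfam, Polrmt, Tfb2m and Lrpprc rose by 0.49, 0.38, 0.82 and 0.45 and then fell by 0.52, 0.55, 0.61 and 0.58. Tefm, Slirp and Mtpap rose to day 3 and were not called from day 3 to day 7 (adjusted p = 0.466, 0.934 and 0.328, limma). From day 7 to day 11, when 7 members fell again, Tfam, Polrmt and Lrpprc gave 0.11, 0.05 and 0.13, of which that of Lrpprc was called (adjusted p = 0.00165, limma), and Tfb2m fell by 0.205 (0.00544).

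Markers of the fat cell were higher in knockdown cells at days 3, 7 and 11. At day 3, when mt-Nd1 and mt-Nd4 were lower, the 8 adipocyte markers together held 25401 to 30587 normalized reads in control and 42021 to 55701 in knockdown libraries. They held 47465 to 51561 in control libraries at day 7 and 129737 to 200747 in knockdown libraries, with 8 of 8 called higher, and at day 11 they held 54958 to 64899 and 113648 to 140491. At day 0 they held 19717 to 20316 and 21954 to 23542, nearly all of it Lpl (means of 18693 and 21383). Adipoq, a hormone made by fat cells, was at 0 to 0.83 in control cells labelled preadipocytes on that day. The 7 preadipocyte or fibroblast markers held 331365 to 371394 in control and 274473 to 306020 in knockdown libraries at day 7, with 6 lower. 3 macrophage markers together held 47 to 81 in control and 89 to 150 in knockdown libraries at day 7, and 166 to 278 and 265 to 619 at day 11. At day 7 that difference was mostly Cd68 (means of 44.9 and 101), while Csf1r had means of 14.1 and 17.9 and Ptprc was at or near 0 (0.99 and 0.53). The part of these markers in the members' changes was not tested. Libraries held 22280319 to 31073717 reads in genes. The arms overlapped in depth at days 0, 3 and 7, but not at day 11, with 26486034 to 31073717 in control and 22839419 to 25511805 in knockdown libraries; the part of depth in the day 11 values was not tested.

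Over all 32 libraries each member correlated with the mean of the other 8, from a Pearson r of 0.78 for mt-Co3 to 0.98 for mt-Nd5. The mean of the 9 correlated with mt-Nd6 at 0.35, with mt-Rnr1 at -0.84 and with mt-Rnr2 at -0.81. Among 11631 named genes outside the mitochondrial genome, those most alike to that mean included Arglu1 (0.93), Ttll4 (0.93), Mcm4 (0.93), part of the replicative helicase, and Cspp1 (0.93). The most opposite were Sqor (-0.96), a mitochondrial sulfide oxidase, Oit3 (-0.96) and Epm2a (-0.95). These values share the days of the course: within groups of the same day and arm these genes gave -0.30 to 0.24.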

How the data were processed

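Gene-level RNA sequencing values of 32 mouse 3T3-L1 libraries were used as deposited. The authors deposited 1 table of log2 values, per the file header and the values themselves; its lowest value is -1.56, and the values fit a regularized log of counts divided by a size factor. Reads were aligned with TopHat2 2.1.0 and Bowtie2 2.2.6, handled with SAMtools 1.3.1 and counted with HTSeq 0.6.1, per the submitters' processing notes. RNA came from RNeasy columns and libraries from an Illumina TruSeq RNA kit, per the labels' protocols. Build, annotation, strand setting and log step are not given in the sources used here.

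The main test was limma 3.58.1 (R 4.3.3; trend, robust empirical Bayes) on the deposited log2 values, 1 fit of 8 libraries a day, 1 of the 16 controls and 1 of all 32 for differences between days. Genes entered with a back-transformed value of 10 or more in 4 libraries. P-values were adjusted by Benjamini-Hochberg over all genes tested and called under 0.05. Fold changes on this scale are shrunken for genes with few reads. On simulated day 7 data of 13389 genes with 200 changed 2-fold, 100% were recovered, 6.98% of calls were false and the mean estimate of a log2 change of 1 was 0.901.

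Normalized reads were rebuilt by inverting the log step: 95.8% of all values and 95.1% of member values came within 0.1 of a whole read (20% by chance), and 99.98% of simulated counts came back exactly. Size factors ran from 0.862 to 1.229. Reads served for levels, shares and ratios. Normalized reads divide reads by the size factor; levels between genes are per kilobase of GENCODE M21 gene length, in which 20521 of the 20560 identifiers were found. The replicate pairs of the same group (32) differed by more than sampling noise (chi-square per degree of freedom 3.0 to 11.8), so each library counted once. Nuclear copies were sought with blastn 2.17.0+ among 141730 transcripts (at least 200 bases at 95% identity), and every 50-base window was compared exactly. Marker lists for endothelium and muscle, of which few genes passed the filter, gave 0 of 1 and 1 of 1 (Des, 0.75) called higher at day 7.

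Alternatives were no filter, a filter of 50, rescaled libraries, a pseudocount of 1, limma without trend, a replicate block, separate shRNA groups, 1 fit of all libraries and leaving out each library. 2 further ones, voom on rebuilt reads and log2 of rebuilt normalized reads plus 1, were chosen after seeing the data. Named genes were the 9 members, the other genes of the mitochondrial genome, Zbtb9, 15 fixed factors, nuclear copies, up to 2 largest rises and falls per list, and the 5 most and 3 least correlated genes, of which 1 is not reported here. Members and lists were chosen with earlier results of these data known.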

Additional observations from a re-analysis of the deposited data

Results flagged for a closer look

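In 5 of 96 groups of 4 libraries tested, about the 1 in 20 that chance gives, a library stood far from the other 3. mt-Co1 in knockdown cells at day 11 was highest in shRNA #2 replicate 1, at a deposited log2 value of 16.505 against 15.903 to 15.980 in the others. mt-Co2 in control cells was highest in replicate 1 at day 0 (8.413 against 8.133 to 8.170) and in replicate 4 at day 11 (7.699 against 7.474 to 7.496). mt-Atp6 in control cells was lowest in replicate 1 at day 7 (6.390 against 6.929 to 6.995) and highest in replicate 1 at day 11 (6.356 against 6.081 to 6.112).

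The effect of the knockdown differed from its effect at day 0, by limma's test of that difference over all genes, for 4 genes at day 7 and 3 at day 11. At day 7 the differences were -0.474 for mt-Nd1, -0.384 for mt-Nd4, -0.678 for mt-Cytb and 0.496 for mt-Nd6. At day 11 they were 1.150 for mt-Rnr1, 0.975 for mt-Rnr2 and 0.629 for mt-Nd6.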

How the results depend on the processing

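The falls of mt-Cytb and mt-Nd5 and the rise of mt-Nd6 at day 7, and that of mt-Nd6 at day 11, kept their direction and call in every alternative run. The number of members called changed by over 1.5 times as follows. At day 0 it was 3 with the shRNAs as separate groups (0 in the main fit), and between the hairpins 3 without trend and robust estimation (6). At day 3 it was 1 without trend and 0 in 1 fit of all 32 libraries (2), and between the hairpins 0 without a filter or without trend (1). At day 7 between the hairpins it was 1 under both rescalings and 0 without trend (3). Under the rescalings mt-Rnr2 at day 7 turned to -0.014 and -0.016, and from day 0 to day 3 in control cells mt-Co2 to -0.098 and -0.096 and mt-Rnr2 to -0.024 and -0.021.

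Same-numbered libraries of a day correlated weakly in their deviations, at -0.002 to 0.096 on days 0, 3 and 7. At day 11 they correlated at 0.006 to 0.224, over 0.1 in 5 of 6 pairs. These values cannot settle whether replicate numbers paired the libraries. Pairs with different numbers were not compared, and both pairs between the hairpins on a day hold the same value by construction. With the replicate block the members called were 0 at day 3, 2 at day 7 (mt-Nd5 and mt-Cytb) and 2 between the hairpins at day 3. mt-Rnr1 at day 0 (adjusted p = 0.437, limma) and mt-Rnr1 and mt-Rnr2 at day 11 (0.0901 and 0.182) were not called with the block. Under the block mt-Nd2, mt-Nd5, mt-Co2, mt-Nd6 and mt-Rnr1 turned to 0.043, 0.044, 0.001, 0.004 and 0.032 at day 3, and mt-Co2 to 0.250 at day 7. Over all genes the block gave 0, 845, 4112 and 1652 calls on the 4 days (430, 3506, 6328 and 4382 without).

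Leaving out 1 library at a time gave 0 to 2 members called at day 3, 5 to 7 at day 7 and 0 to 1 at day 11, and between the hairpins 2 to 6, 0 to 1, 0 to 5 and 0 to 3 on the 4 days; for the difference from day 0 it gave 3 to 4 at day 7 and 0 to 1 at day 11. A lone library left in a hairpin's group is assumed to vary like the others. Changes near 0 crossed it: at day 0 mt-Nd2 (-0.003 to 0.056), at day 3 mt-Nd2 (-0.055 to 0.031), mt-Nd5 (-0.109 to 0.011), mt-Rnr1 (-0.261 to 0.164) and mt-Rnr2 (-0.253 to 0.132), at day 7 mt-Co2 (-0.208 to 0.082) and mt-Rnr2 (-0.116 to 0.124). At day 11 they were mt-Nd1 (-0.076 to 0.070), mt-Nd4 (-0.010 to 0.199), mt-Nd5 (-0.039 to 0.148), mt-Cytb (-0.090 to 0.058) and mt-Co3 (-0.127 to 0.108), and in control cells to day 3 mt-Co2 (-0.038 to 0.159).

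Over all genes, calls at day 0 numbered 3340 with separate shRNA groups, 2409 in the fit of all 32 libraries and 261 without trend (430). They numbered 5311 with separate groups at day 3 (3506) and 6792 in the fit of all 32 libraries at day 11 (4382). Between the hairpins they numbered 1710 without a filter and 1454 without trend at day 3 (2572), and 1035 without trend at day 7 (2183). With libraries rescaled to equal totals, the share of higher calls went from 50.1% to 38.6% in control cells to day 3, from 25.1% to 43.3% at day 0, from 45.8% to 61.9% between the hairpins at day 7, and for the differences from day 0 from 56.2% to 42.4%, 56.0% to 40.7% and 53.6% to 40.1%. The causes were not tested. Low reads limit Zbtb9, mt-Co2, mt-Co3 and mt-Atp6.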
